A study of Mus musculus with 22 samples.

Results

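Cerebrospinal fluid is secreted by the choroid plexus (ChP) epithelium, and 8 genes for the movement of water and ions across this epithelium were followed here: the water channels *Aqp1* and *Aqp4*, the sodium pump beta subunits *Atp1b1* and *Atp1b2*, the pump regulator *Fxyd1*, the Na-K-2Cl cotransporter *Slc12a2*, its activating kinase *Stk39* and the chloride intracellular channel gene *Clic6*. They were chosen by name, as 8 of the 33964 genes that could be read from the deposited counts, and all 8 passed the filter on low counts in every comparison. RNA was sequenced from 14 pools of mouse ChP, with 2 pools, A and B, in each of 7 groups. In the conditional model, 3-month-old *Otx2* lox/lox mice (strain label S129) received Cre-Tat, a recombinase that enters cells, or vehicle in the lateral ventricles, and ChPs of the lateral ventricles (LV) and of the fourth ventricle (4V) were taken apart 15 days later from pools of 5 mice labelled Cre and 4 mice labelled Veh. Both treatment groups thus carried the lox alleles and the injection, and the protein acts only in the cells it reaches from the ventricle. In the constitutive model (strain label B6D2), the 4V ChP of WT, Otx2 (+/-) and Otx2 (+/AA) mice was pooled, at 3 months from 4 Otx2 (+/-) and 5 WT mice, while the number of Otx2 (+/AA) mice is not given in the sources used here. The (+/-) allele, called GFP in the study's methods, and the AA allele are present from conception and in all tissues, so that these pools differ from the conditional ones in strain, in the time of the loss and in the sequencing run, which cannot be told apart. The pools held 22750019 to 50088408 counts each. By the study's methods, pools A and B of the conditional model hold different mice, while this is not said of the constitutive model, and p-values measure the spread between 2 pools only, and an exact permutation test of 2 against 2 pools cannot go below p = 0.333.

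The sodium pump is a pair of an alpha subunit, which hydrolyses ATP and moves sodium and potassium, and a beta subunit, which carries the alpha subunit to the membrane. In ChP, unlike most epithelia, the pump sits in the apical membrane that faces the fluid, and it keeps the sodium gradient on which secretion depends. FXYD proteins are small membrane proteins that tune the affinity of the pump, and *Fxyd1* encodes phospholemman. The cotransporter NKCC1, encoded by *Slc12a2*, lies in the same apical membrane and is switched on when WNK kinases activate SPAK, the product of *Stk39*. Water follows through aquaporin 1, the main water channel of the ChP epithelium, whereas aquaporin 4 is best known from the endfeet of astrocytes and from ependyma. *Clic6* is a member of the CLIC family and is known for its abundance in ChP.

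The count of *Otx2*, the targeted gene, went against the labels. Levels are given as CPM, counts scaled to a common library size with TMM factors. LV vehicle pools held 391 and 476 CPM of *Otx2*, and LV Cre-Tat pools 1245 and 1016 CPM. In 4V ChP it was 383 and 391.9 against 1196 and 1211, and it was 362 and 303 in WT, 1034 and 884 in Otx2 (+/-) and 339 and 353 in Otx2 (+/AA) pools. This count covers the whole transcript, while the study followed exon 2 separately, and by its methods also tested a piece of each conditional ChP by qPCR, so that Cre-Tat samples with reduced *Otx2* on average went into the pools. Neither measure was analysed here. The groups are therefore named by their labels throughout, and no direction below is tied to a level of OTX2. A second doubt concerns the join of files to pools: 14 of 16 conditional files carry a library number that belongs to another sample than their own entry. Joined by that number, the 2 technical runs of a pool agreed within counting noise (chi-square per degree of freedom 1.005 to 1.037), whereas it was 22.8 to 40.9 as attached, so the numbers were used. Every direction given below for the Cre-Tat comparisons rests on this choice, and most turn with the files as attached.

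Of the established ChP epithelium markers, transthyretin and 10 others, the summed level was 185630 to 235840 CPM in vehicle pools of both ventricles and 87665 to 164840 CPM in Cre-Tat pools. In 4V ChP 10 of these 11 markers were lower and 1, *Otx2*, was higher after Cre-Tat, where 4.99% of all genes tested were lower and 5.7% higher, and in LV ChP 4 were lower and 1 higher, against 1.03% and 2.21% of all genes. In the constitutive model the sum was 189300 to 200810 CPM in WT, 126930 to 133600 in Otx2 (+/-) and 155170 to 156840 in Otx2 (+/AA) pools. *Ttr* made up most of each sum, at 148200 and 139030 CPM in WT and 76928 and 89714 CPM in Otx2 (+/-) pools. In Otx2 (+/-) 3 of the 11 were lower than in WT and 1, *Otx2*, higher, against 1.74% and 1.79% of all genes. In Otx2 (+/AA) none passed with edgeR, against 0.345% of all genes, and 1 with DESeq2, which called 122 genes in all. The 7 ependyma markers summed to 182 to 226 CPM in vehicle pools and 295 to 361 CPM in Cre-Tat pools, but to 290.3 to 336 CPM without separation in the constitutive pools. The largest part was *Foxj1*, at 77.6 to 101 CPM in vehicle and 133 to 187 CPM in Cre-Tat pools. *Ccdc153* overlapped, at 0.46 to 1.69 against 0.53 to 1.55 CPM, as did *Tmem212*, at 0 to 0.48 against 0.08 to 0.27 CPM. *Rarres2* overlapped as well, at 14.2 to 21.2 against 15.7 to 29.6 CPM. Of the 6 tested, 3 were higher in LV and 2 in 4V ChP after Cre-Tat, against 2.21% and 5.7% of all genes, and none lower. The 7 macrophage markers summed to 48.1 to 69.0 CPM in vehicle and 82.0 to 120.2 CPM in Cre-Tat pools, and to 78.8 to 83.3 CPM in WT, 92.1 to 103 CPM in Otx2 (+/-) and 107 CPM in both Otx2 (+/AA) pools. The 9 astrocyte markers summed to 258.6 to 337 CPM in vehicle and WT pools and to 216 to 315 CPM in Cre-Tat and mutant pools, and the 7 neuron markers to 18.9 and 19.1 CPM in LV vehicle, 23.2 and 27.6 CPM in LV Cre-Tat and 7.42 to 23.2 CPM in 4V pools. In LV ChP 2 of the 6 tested neuron markers were called higher after Cre-Tat (median log2 difference 0.94), against 2.21% of all genes. The 6 oligodendrocyte markers summed to 29.3 to 59.8 CPM in LV pools, vehicle and Cre-Tat overlapping, to 23.2 to 28.7 CPM in conditional 4V and 48.9 to 60.2 CPM in constitutive pools. Vessel and stromal markers (7 of each) stood higher in the constitutive pools as a whole than in the conditional ones, and the 5 red blood cell markers summed to 9.05 CPM or less in every pool. In pooled tissue, fewer cells of a type and less RNA per cell cannot be told apart, and the part of the cell mixture in the results below was not tested.

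RefSeq promoter windows were found for 4 of the 8 genes. Sequence is shown for 2 of them, *Aqp1*, whose level fell after Cre-Tat, and *Atp1b1*, whose Cre-Tat pools lay above the vehicle pools: the 250 bases (GRCm38.p6) before the RefSeq start of *Aqp1* (chr6:55336049-55336298, plus strand) and of *Atp1b1* (chr1:164458356-164458605, minus strand), written 5′ to 3′ along the gene. Capitals mark the core that homeodomain proteins recognise, TAAT or its complement ATTA on the other strand, and OTX2 is known to prefer the longer TAATCC.
Aqp1: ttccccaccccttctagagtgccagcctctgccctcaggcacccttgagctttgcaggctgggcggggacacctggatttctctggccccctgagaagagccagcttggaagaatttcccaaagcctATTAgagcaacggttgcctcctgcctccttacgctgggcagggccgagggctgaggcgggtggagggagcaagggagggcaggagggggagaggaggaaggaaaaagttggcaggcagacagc
Atp1b1: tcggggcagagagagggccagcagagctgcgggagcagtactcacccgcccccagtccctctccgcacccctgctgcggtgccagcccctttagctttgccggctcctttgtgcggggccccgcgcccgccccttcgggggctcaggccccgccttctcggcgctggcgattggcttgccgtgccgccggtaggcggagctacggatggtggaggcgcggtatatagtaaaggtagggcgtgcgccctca
The *Aqp1* window held 1 TAAT core and the *Atp1b1* window none, while 54.92% of 32851 such windows held at least 1. The windows of *Fxyd1* and *Stk39*, which both fell in 4V ChP after Cre-Tat, held no TAAT core either. None of the 4 windows held TAATCC (or GGATTA), which was present in 6.25% of all windows. TATAAA (or TTTATA), present in 12.37%, was also absent from the 4. The *Atp1b1* window was rich in CG pairs, with 24 against a median of 6 over all windows, whereas that of *Aqp1* held 5. These are matches of letters, and nothing about binding was measured.

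The 8 genes are spread over 7 chromosomes, and their positions are given on GRCm38 (mm10). *Aqp1* lies on chr6:55336432-55348555, *Aqp4* on chr18:15389496-15410982, *Atp1b1* on chr1:164437109-164458355, *Atp1b2* on chr11:69599736-69605942, *Fxyd1* on chr7:31051678-31057199, *Slc12a2* on chr18:57878678-57946821, *Stk39* on chr2:68210445-68472268 and *Clic6* on chr16:92485736-92541243. Each is protein coding, and the counts were taken over the exons of 1 transcript of 4 to 27 exons. For *Atp1b2* this transcript, Atp1b2-202, is annotated as processed and not as coding. Exons of *Nme7* on the opposite strand overlap up to 20.2% of the *Atp1b1* transcript, and although the library kit marks strand, the counting is not stated to use it.

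Levels were compared between genes per kilobase of transcript. In vehicle LV ChP, *Clic6* (295 ± 38.8 CPM per kb, SD, n = 2), *Atp1b1* (259.2 ± 2.97), *Stk39* (257.2 ± 3.25), *Fxyd1* (253 ± 16.9), *Slc12a2* (228 ± 17.9) and *Aqp1* (174 ± 7.12) were the most abundant. The pools of *Atp1b1*, *Stk39* and *Fxyd1* overlapped each other in this order. Far below them came *Atp1b2* (16.9 ± 1.49 CPM per kb) and *Aqp4* (1.88 ± 0.329). The same 6 genes were the highest in each of the 7 groups, and *Aqp4* was the lowest in all groups but Otx2 (+/-), where *Atp1b2* was (6.54 ± 0.282 against 8.21 ± 1.501 for *Aqp4*). The leading gene was *Atp1b1* in LV and 4V Cre-Tat, 4V vehicle and Otx2 (+/-) pools, and *Clic6* in LV vehicle, WT and Otx2 (+/AA) pools, although the pools of both genes overlapped in WT and Otx2 (+/-).

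**Figure D1:**
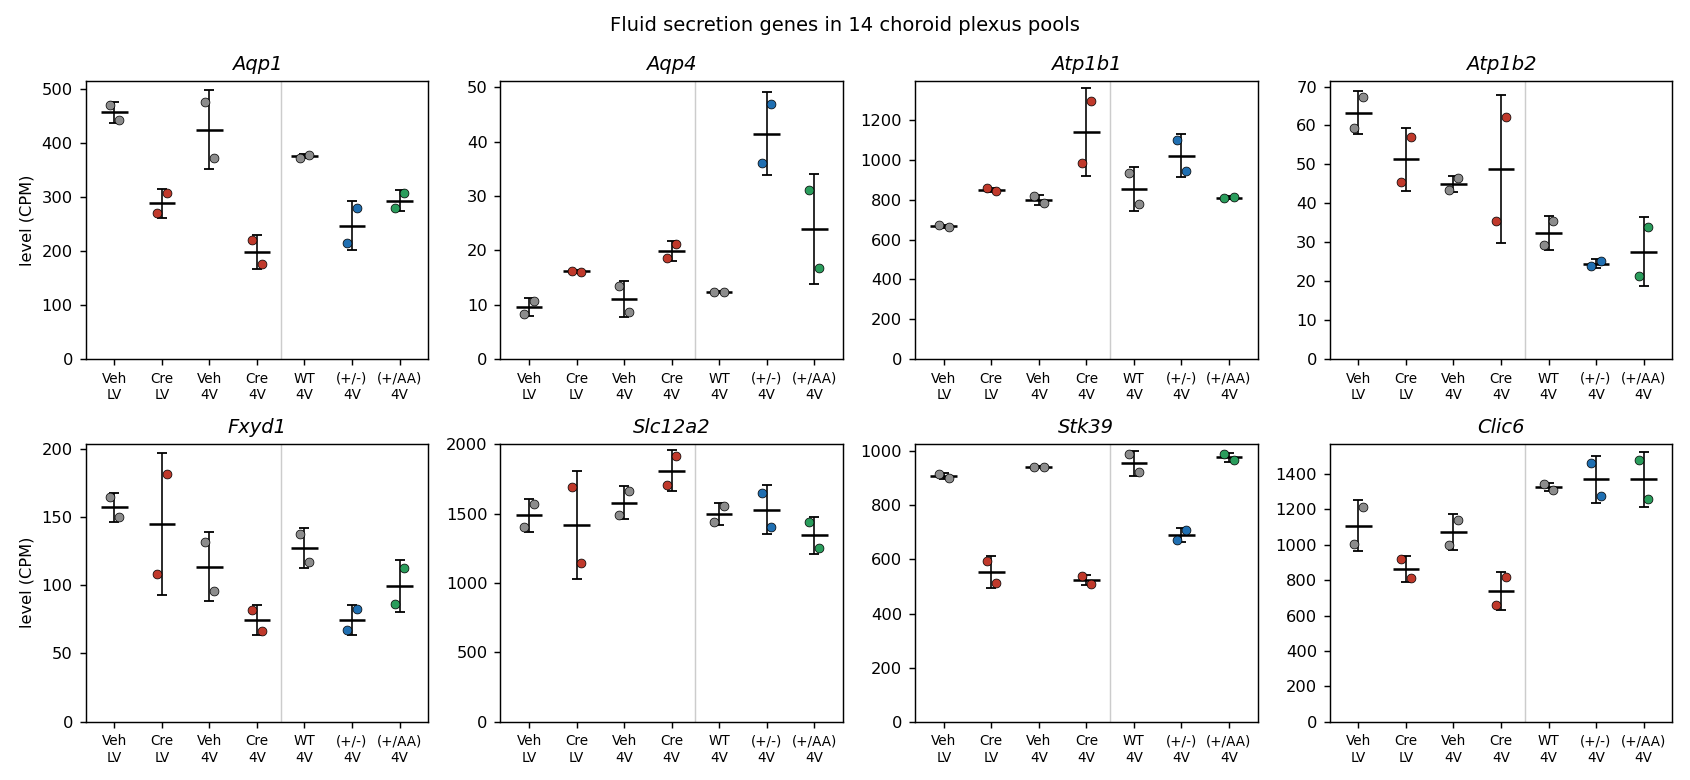
Level of each gene in CPM (vertical axis, from 0) in the 14 pools, as points, with the group mean (line) and SD (bar) over 2 pools. Veh and Cre are the conditional model, WT, (+/-) and (+/AA) the constitutive one, and a grey line parts both. *Stk39* and *Aqp1* are lower in each Cre pool than in the vehicle pools of the same ventricle, and *Aqp4* is highest in the (+/-) pools.

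*Aqp1*, the main water channel of the ChP epithelium, fell in both ventricles after Cre-Tat. It stood at 471 and 444 CPM in the LV vehicle pools and at 270.0 and 307 CPM in the LV Cre-Tat pools. In 4V ChP it stood at 478 and 374 CPM in vehicle and 220.3 and 176 CPM in Cre-Tat pools. In neither ventricle did the pools of both groups overlap. The log2 fold change was -0.64 ± 0.16 (SE, adjusted p = 0.0458) in LV, a level 35.8% lower, and -1.10 ± 0.16 (adjusted p = 0.000211) in 4V ChP, a level 53.2% lower. The LV call was lost without either vehicle pool, without Cre-Tat pool A (adjusted p = 0.0717 to 0.396 in these fits), under scaling by total counts (0.145) and with pool letter as a block (0.0713). The 4V call was kept with each pool left out, at log2 fold changes of -1.28 to -0.89, and with total counts. In 4V ChP of the constitutive model, *Aqp1* was at 373 and 379 CPM in WT, 216 and 279 CPM in Otx2 (+/-) and 279.9 and 307 CPM in Otx2 (+/AA) pools. Both mutant groups lay below WT without overlap, with log2 fold changes of -0.60 ± 0.14 (95% CI -0.93 to -0.28, adjusted p = 0.0629) and -0.36 ± 0.13 (95% CI -0.64 to -0.08, adjusted p = 0.352) that did not pass the threshold. The Otx2 (+/-) value passed it with DESeq2 (adjusted p = 0.00554) and in a fit of all 3 groups (0.0429), and also without WT pool A (0.0414) or without Otx2 (+/-) pool B (0.00555).

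*Aqp4*, which in brain is a channel of astrocytes and ependyma, moved the other way. Its counts were low but far above the floor, with 94 to 914 reads per pool. In LV ChP the level was 8.33 and 10.7 CPM in vehicle and 16.3 and 16.0 CPM in Cre-Tat pools, and in 4V ChP it was 13.4 and 8.65 CPM against 18.5 and 21.2 CPM. These are rises of 1.72-fold in LV (log2 0.78 ± 0.19, adjusted p = 0.0376) and 1.79-fold in 4V ChP (log2 0.84 ± 0.20, adjusted p = 0.0101). The LV call was lost without vehicle pool A (adjusted p = 0.391) or Cre-Tat pool A (0.066), the 4V call without vehicle pool B (0.129), and both with transcripts summed per gene (0.0922 and 0.051). *Aqp4* has 1 transcript in the files, so that summing changed the counts of other genes and not its own. The largest rise was in the constitutive heterozygote. WT pools both stood at 12.4 CPM and Otx2 (+/-) pools at 36.1 and 46.9 CPM, 3.34-fold higher (log2 1.74 ± 0.16, adjusted p = 0.0011), and this call was kept under each alternative. Otx2 (+/AA) pools, at 31.1 and 16.8 CPM, also lay above WT, but differed from each other by more than the lower of them differed from WT (log2 0.95 ± 0.24, 95% CI 0.44 to 1.46, adjusted p = 0.126, 0.0463 with DESeq2 and 3.2e-05 without the filter). Without pool B of Otx2 (+/AA), or without either WT pool, this difference passed (adjusted p = 0.00705 to 0.00823). The ependyma marker sum, given above, was higher together with *Aqp4* in the Cre-Tat pools and overlapped WT in the Otx2 (+/-) pools, and the median log2 difference of the 6 tested ependyma markers was 0.58 in LV and 0.47 in 4V ChP after Cre-Tat and 0.31 in Otx2 (+/-). The astrocyte marker sum was not higher in any of the 3 comparisons, but the markers' median log2 difference was 0.39 in LV Cre-Tat and 0.37 in Otx2 (+/-), with 1 marker called higher and 1 lower of 9 in each, and -0.08 in 4V Cre-Tat, with 2 called each way of 8. Of the astrocyte markers taken singly, *Slc1a3*, a glutamate transporter, was higher in 4V Cre-Tat (log2 1.51 ± 0.19, adjusted p = 4.8e-05) and Otx2 (+/-) pools (1.61 ± 0.20, adjusted p = 0.00424), and *Slc7a10* was lower in both (-0.81 ± 0.15 and -1.12 ± 0.12). Their part in the *Aqp4* values was not tested. Per kilobase, *Aqp1* exceeded *Aqp4* by a factor of 80.0 to 109 in LV vehicle pools and 31.9 to 37.1 in LV Cre-Tat pools. In 4V ChP the factor was 68.7 to 83.1 in vehicle and 16.0 to 22.9 in Cre-Tat pools, and it was 57.9 to 58.7 in WT, 11.5 in both Otx2 (+/-) and 17.3 to 35.2 in Otx2 (+/AA) pools. *Aqp1* thus remained the more abundant of the pair in every pool.

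Of the 12 aquaporin genes, 9 had a mean under 1 CPM over the 14 pools, and 3 were tested in each comparison. The remaining one, *Aqp11*, whose product is a channel of intracellular membranes, was at 5.79 to 8.04 CPM in LV and 2.41 to 4.56 CPM in 4V pools. It was 1 of the genes higher in LV than in 4V ChP of vehicle mice (log2 0.88 ± 0.25, adjusted p = 0.0479), a call that was lost with DESeq2 (adjusted p = 0.135), total counts (0.0905), a mean count above 10 (0.0501), transcripts summed (0.105) and all groups of the run (0.0663), and without LV pool A or either 4V pool (0.0533 to 0.281).

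*Atp1b1* encodes the main beta subunit of the pump in ChP. Its level in LV ChP was 674 and 663 CPM in vehicle and 859 and 845 CPM in Cre-Tat pools, and in 4V ChP 819.8 and 784 CPM against 987 and 1298 CPM. The pools did not overlap in either ventricle, yet the log2 differences of 0.37 ± 0.16 (95% CI 0.04 to 0.71, adjusted p = 0.281) and 0.52 ± 0.16 (95% CI 0.17 to 0.86, adjusted p = 0.0544) missed the threshold. In 4V ChP it was passed with DESeq2 (adjusted p = 0.0228), with total counts, without the filter and without Cre-Tat pool A (0.00141). WT pools were at 933 and 778 CPM, Otx2 (+/-) pools at 1101 and 946 CPM and Otx2 (+/AA) pools at 808 and 817 CPM, with log2 differences from WT of 0.26 ± 0.14 and -0.08 ± 0.13.

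*Atp1b2*, the beta subunit best known from glia, was lower in abundance by an order of magnitude per kilobase, and differed between ventricles. Vehicle pools held 59.4 and 67.3 CPM in LV and 43.5 and 46.5 CPM in 4V ChP, 1.38-fold more in LV (log2 0.46 ± 0.12, adjusted p = 0.0342). This call was lost without LV pool B or without either 4V pool (adjusted p = 0.137 to 0.187), and also with DESeq2 (0.0552), total counts (0.217), summed transcripts (0.0581) and a fit of all groups of the run (0.251). After Cre-Tat, the LV pools were at 45.6 and 57.0 CPM and the 4V pools at 35.4 and 62.3 CPM, which overlapped the vehicle pools in 4V ChP. The constitutive pools held 29.3 and 35.5 CPM in WT, 23.8 and 25.3 CPM in Otx2 (+/-) and 21.3 and 33.8 CPM in Otx2 (+/AA). With all pools and no block, none of the differences for genotype or Cre-Tat passed the threshold (log2 -0.40 to 0.13). The 4V Cre-Tat difference passed without Cre-Tat pool A (log2 0.47, adjusted p = 0.0421), and the Otx2 (+/-) difference with pool letter as a block (log2 -0.39, adjusted p = 0.0162).

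*Fxyd1*, the phospholemman gene, was lower in 4V ChP of both models. Vehicle 4V pools held 131 and 95.8 CPM and Cre-Tat 4V pools 82.1 and 66.7 CPM, a log2 fold change of -0.61 ± 0.16 (adjusted p = 0.021). WT pools held 137 and 117 CPM against 67.0 and 82.3 CPM in Otx2 (+/-), a log2 fold change of -0.77 ± 0.14 (adjusted p = 0.0216). The latter call was kept under each alternative, whereas the 4V Cre-Tat call was lost without vehicle pool A (adjusted p = 0.441, log2 -0.34), without Cre-Tat pool B (0.0556), with total counts (0.0645), with summed transcripts (0.0774) and in a fit of all groups of the run (0.121). In LV ChP, the Cre-Tat pools lay apart from each other, at 108 and 182 CPM, on both sides of the vehicle pools at 164 and 149.7 CPM (log2 -0.09 ± 0.21). Otx2 (+/AA) pools, at 86.1 and 113 CPM, lay below WT without passing the threshold (log2 -0.36 ± 0.15, adjusted p = 0.496).

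**Figure D2:**
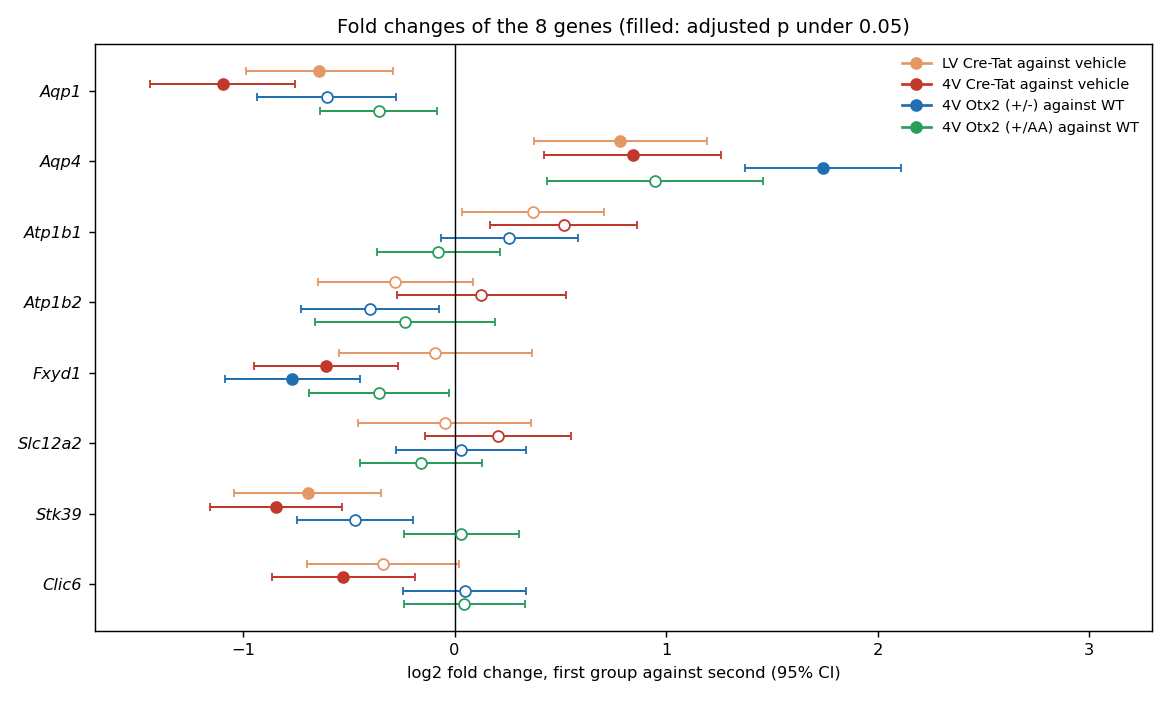
Log2 fold change (horizontal axis, 0 marked) with its 95% confidence interval for the 8 genes in 4 comparisons, filled where the adjusted p was under 0.05. The intervals of *Aqp1* and *Aqp4* lie on opposite sides of 0 in each comparison shown, and those of *Slc12a2* all include 0.

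*Slc12a2*, for the cotransporter NKCC1, did not pass the threshold in any comparison. Its level was 1406 and 1571 CPM in LV vehicle pools, and the LV Cre-Tat pools lay on both sides, at 1696 and 1144 CPM. In 4V ChP it was 1494 and 1665 CPM in vehicle and 1707 and 1916 CPM in Cre-Tat pools, which lay just above without overlap. WT pools stood at 1441 and 1555 CPM, Otx2 (+/-) pools at 1653 and 1408 CPM and Otx2 (+/AA) pools at 1438 and 1251 CPM. The 95% intervals of the log2 difference were -0.45 to 0.36 in LV, -0.14 to 0.55 in 4V, -0.28 to 0.34 in Otx2 (+/-) and -0.45 to 0.13 in Otx2 (+/AA), which leaves room for changes of up to 1.46-fold in 4V ChP.

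*Stk39*, for the kinase SPAK that activates this cotransporter, fell in both ventricles after Cre-Tat. LV pools held 917 and 901 CPM in vehicle and 595 and 512 CPM in Cre-Tat, 38.2% lower (log2 -0.70 ± 0.16, adjusted p = 0.0308). 4V pools held 943 and 944 CPM in vehicle and 537 and 509.6 CPM in Cre-Tat, 44.2% lower (log2 -0.84 ± 0.15, adjusted p = 0.00101). The 4V call was kept in each fit by library number, and the LV call was lost without vehicle pool A (adjusted p = 0.242), without vehicle pool B (0.178) and with total counts (0.119). In the constitutive model, WT pools held 989 and 924 CPM and Otx2 (+/-) pools 672 and 707 CPM, again without overlap, but the difference missed the threshold (log2 -0.47 ± 0.12, 95% CI -0.74 to -0.20, adjusted p = 0.0755, and 0.0128 with DESeq2). The Otx2 (+/AA) pools, at 990.4 and 966 CPM, overlapped the WT range (log2 0.03 ± 0.13). All 8 *Stk39* transcripts in the files gave like values, with log2 ratios of mean CPM from -0.81 to -0.70 in LV and -0.93 to -0.83 in 4V ChP after Cre-Tat; a read can be counted on several of them.

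*Clic6* fell in 4V ChP after Cre-Tat. LV pools held 1006 and 1212 CPM in vehicle and 917 and 812 CPM in Cre-Tat, lower without overlap, though not past the threshold (log2 -0.34 ± 0.17, adjusted p = 0.399). 4V pools held 997 and 1141 CPM against 662 and 816 CPM (log2 -0.53 ± 0.16, adjusted p = 0.0426). The 4V call was lost without either vehicle pool or Cre-Tat pool A (adjusted p = 0.125 to 0.315), with total counts (0.149), summed transcripts (0.0513) and a fit of all groups of the run (0.0654). The constitutive pools overlapped, at 1342 and 1309 CPM in WT, 1463 and 1277 CPM in Otx2 (+/-) and 1480.2 and 1260.0 CPM in Otx2 (+/AA), with log2 differences from WT of 0.05 ± 0.13 in both mutants.

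Counted together, 3 of the 8 genes passed the threshold in LV ChP after Cre-Tat, 1 higher and 2 lower, where 3.24% of all 14990 genes tested did, 2.21% higher and 1.03% lower. In 4V ChP, 5 of the 8 passed, 1 higher and 4 lower, against 10.7% of 14537 genes, 5.7% higher and 4.99% lower. In Otx2 (+/-) against WT, 2 of the 8 passed, 1 in each direction, against 3.53% of 14561 genes, 1.79% higher and 1.74% lower. None passed in Otx2 (+/AA) against WT, where 0.345% of 14482 genes did. An unadjusted p under 0.05 (edgeR) was found there for 3 of the 8 and for 1289 of the 14482 genes. DESeq2 called 1 of the 8 and 122 genes in all. The median log2 fold change of the 8 was -0.19, -0.20, -0.18 and -0.12 in these comparisons, against 0.00, 0.01, 0.00 and -0.01 over all genes tested. Scaling by total counts in place of TMM moved the median of all genes by 0.17 in LV and 0.15 in 4V ChP after Cre-Tat, and under it 1 of the 8 passed in LV ChP, *Aqp4*.

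Differences between responses were tested as interactions. No member passed in the comparison of the Cre-Tat response between LV and 4V ChP, where 0.00643% of 15552 genes did, and none passed with DESeq2. None of the 8 had an unadjusted p under 0.05 in edgeR, where 415 of the 15552 genes did. The log2 response in LV minus that in 4V ChP was 0.46 for *Aqp1* (95% CI -0.04 to 0.96) and 0.19 for *Clic6* (95% CI -0.30 to 0.68). Between the 4V Cre-Tat and the Otx2 (+/-) response, again no member passed, against 1.61% of 15314 genes. An unadjusted p under 0.05 (edgeR) was found for 4 of the 8 and for 1983 of the 15314 genes. The log2 response to Cre-Tat minus that in Otx2 (+/-) was -0.91 ± 0.28 for *Aqp4* (95% CI -1.51 to -0.31, adjusted p = 0.154, and 0.0141 without the filter on low counts). It was -0.59 ± 0.21 for *Clic6* (adjusted p = 0.224), -0.51 ± 0.23 for *Aqp1* (adjusted p = 0.386) and -0.38 ± 0.17 for *Stk39* (adjusted p = 0.373). In the direct comparison of Otx2 (+/-) with Otx2 (+/AA), in which no member passed against 2.7% of 14566 genes, the log2 difference of *Stk39* was -0.51 ± 0.14 (adjusted p = 0.0979, 0.0139 with DESeq2 and 0.0312 with total counts) and that of *Aqp4* 0.79 ± 0.24 (adjusted p = 0.124). *Aqp4* passed there without Otx2 (+/-) pool A (adjusted p = 0.000332) or Otx2 (+/AA) pool A (2.9e-07), and *Fxyd1* without Otx2 (+/AA) pool A (0.0399). Between ventricles of vehicle mice, 1 member, *Atp1b2*, passed as higher in LV, against 7.49% of 14548 genes in all and 3.49% in that direction. *Fxyd1* was not called there (log2 0.43 ± 0.15, adjusted p = 0.096), but passed without LV pool B (0.0339) or 4V pool A (0.0234) and without the filter (0.0108). *Atp1b1* passed as lower in LV with total counts (log2 -0.48, adjusted p = 0.0205). Both ventricles' ChPs were taken from the same mice, but whether pools of the same letter hold the same mice is not given in the sources used here. With pool letter as a block *Fxyd1* passed as well (adjusted p = 0.00319), and 2277 genes were called in place of 1090. The comparisons of both mutants share their WT pools, and the ventricle comparison shares its pools with the Cre-Tat comparisons.

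Beside *Atp1b1*, *Atp1b2* and *Fxyd1*, the pump was followed in a list of 12 genes of the ATP1 and FXYD families. *Atp1b3*, a beta subunit of wide expression, was at 164 and 158 CPM in LV vehicle and 220.2 and 199.7 CPM in LV Cre-Tat pools, which did not overlap, yet the difference was not called (log2 0.40 ± 0.16, adjusted p = 0.232). It was higher in 4V ChP after Cre-Tat, at 203 and 180.0 CPM against 147 and 127 CPM (log2 0.49 ± 0.14, adjusted p = 0.032), and in Otx2 (+/-), at 215 and 221 CPM against 129 and 149.8 CPM in WT (log2 0.64 ± 0.12, adjusted p = 0.0271). Both sets of pools were thus apart, while the Otx2 (+/AA) pools, at 149 and 158 CPM, overlapped WT (log2 0.14 ± 0.13, adjusted p = 0.860). The 4V Cre-Tat call was lost without either vehicle pool or Cre-Tat pool A (adjusted p = 0.072 to 0.353), with transcripts summed (0.06) and with all groups of the run (0.0549), and that in Otx2 (+/-) without WT pool A (0.117). Of the 3 beta subunits, *Atp1b1* kept 72.5 to 83.3% of the transcripts per kilobase in every pool. The share of *Atp1b3* was 14.8 to 24.2%, and that of *Atp1b2* 1.17 to 5.06%, highest in the LV vehicle pools and lowest in Otx2 (+/-) pools.

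**Figure D3:**
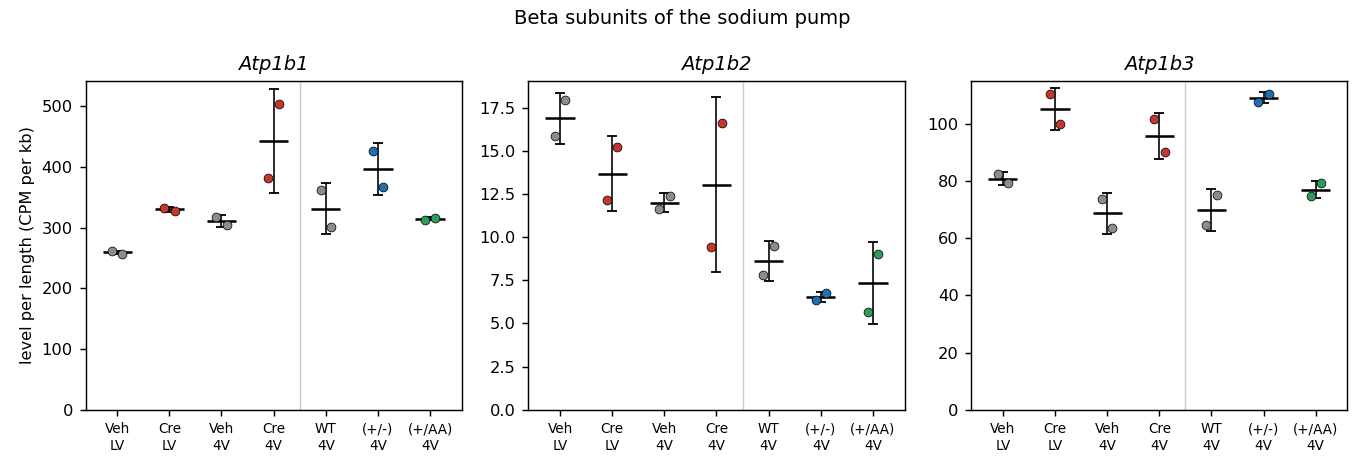
Level per length (CPM per kb, from 0, with a scale of its own in each panel) of the 3 beta subunit genes in the 14 pools, with group mean (line) and SD (bar). *Atp1b3* reaches 108 and 111 CPM per kb in (+/-) pools against 64.8 and 75.1 CPM per kb in WT pools, while *Atp1b2* stays under 18 CPM per kb in every pool.

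*Atp1a4*, known from sperm, was higher in 4V Cre-Tat pools (9.02 and 10.4 against 5.07 and 2.03 CPM, log2 1.42 ± 0.29, adjusted p = 0.00398). The vehicle pools lay far apart, and the log2 difference was 2.28 without vehicle pool A and 0.93 to 2.28 over the 4 pools left out in turn. Of the FXYD genes other than *Fxyd1*, *Fxyd5* had a mean of 11.3 CPM and all others were under 1 CPM. In 4V ChP after Cre-Tat, 2 of the 9 tested genes of the list rose, *Atp1b3* and *Atp1a4*, and *Fxyd1* fell, where 5.7% of all genes rose and 4.99% fell. In Otx2 (+/-) *Atp1b3* rose and *Fxyd1* fell among 7 tested, against 1.79% and 1.74% of all genes. In LV ChP none of 9 passed with edgeR or DESeq2, where edgeR called 3.24% of all genes. An unadjusted p under 0.05 (edgeR) was found for 2 of the 9 and for 2124 of all 14990 genes. The list's median log2 fold change was 0.37 in LV, 0.47 in 4V ChP and -0.40 in Otx2 (+/-), against 0.00, 0.01 and 0.00 over all genes.

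Of 15 tested genes for cation-chloride cotransporters and the kinases above them, *Stk39* was the 1 called in LV ChP after Cre-Tat, where 3.24% of all genes were called, and in 4V ChP, against 10.7% of all genes, *Stk39* fell and *Cab39l* rose (log2 0.50 ± 0.15, adjusted p = 0.0483). With so few genes these counts lie near the shares over all genes. *Cab39l* encodes an MO25 scaffold that binds and activates SPAK and its paralog. Its 4V pools held 933 and 929 CPM in vehicle and 1350.5 and 1261 CPM in Cre-Tat, and the call was lost when either vehicle pool or Cre-Tat pool A was left out (adjusted p = 0.0931 to 0.306), with DESeq2 size factors in edgeR (0.0532) and with all groups of the run (0.0792). The paralog kinase *Oxsr1* (log2 -0.23 in LV and -0.22 in 4V ChP) and the upstream kinase *Wnk1* (-0.03 and 0.22) did not pass. None of the 15 passed in a mutant comparison with edgeR. In Otx2 (+/-) 5 of the 15 had an unadjusted p under 0.05, where 2697 of 14561 genes did, and DESeq2 called 1 of the 15 and 668 genes in all. In Otx2 (+/AA) 0 of the 15 had an unadjusted p under 0.05, where 1289 of 14482 genes did, and DESeq2 called 0 of the 15 and 122 genes in all. The list's median lay between -0.09 and 0.02 in the 5 comparisons of groups with Cre-Tat or a mutant.

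Of the 5 CLIC genes, *Clic3* rose while *Clic6* fell in 4V ChP after Cre-Tat. *Clic3* was at 17.0 and 14.7 CPM in LV vehicle and 25.5 and 27.0 CPM in LV Cre-Tat pools (log2 0.75 ± 0.17, adjusted p = 0.0268), and at 19.0 and 15.6 CPM against 43.3 and 35.8 CPM in 4V ChP (log2 1.20 ± 0.16, adjusted p = 0.000104). The LV call was lost without either vehicle pool (adjusted p = 0.0673 and 0.276). Otx2 (+/-) pools, at 15.2 and 17.6 CPM, overlapped WT pools, at 17.0 and 18.7 CPM. *Clic5* was higher in LV than in 4V ChP of vehicle mice (log2 0.98 ± 0.18, adjusted p = 0.00554), a call that was lost without 4V pool A (adjusted p = 0.0526).

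The genes that anchor aquaporin 4 to the membrane were taken from a list of 11, the dystrophin complex and its partners, all of which were tested. *Mlc1*, whose product forms a complex with that of *Hepacam* in astrocyte endfeet, was at 7.89 and 6.35 CPM in LV vehicle and 16.9 and 18.5 CPM in LV Cre-Tat pools (log2 1.33 ± 0.19, adjusted p = 0.00154). In 4V ChP it was at 15.3 and 8.56 CPM against 36.3 and 36.0 CPM (log2 1.59 ± 0.20, adjusted p = 5.6e-05), and in the constitutive model at 9.47 and 12.9 CPM in WT, 29.0 and 42.1 CPM in Otx2 (+/-) (log2 1.67 ± 0.22, adjusted p = 0.00482) and 20.4 and 19.5 CPM in Otx2 (+/AA) pools. *Mlc1* was also higher in Otx2 (+/-) than in Otx2 (+/AA) pools (log2 0.83 ± 0.18, adjusted p = 0.0329), a call that was lost without Otx2 (+/-) pool B (0.142), with transcripts summed (0.0653) and with all groups of the run (0.0622). *Hepacam* rose after Cre-Tat in LV (log2 1.16 ± 0.20, adjusted p = 0.0063) and 4V ChP (1.03 ± 0.22, adjusted p = 0.00464), and *Dtna*, for alpha-dystrobrevin, rose in 4V ChP (0.51 ± 0.13, adjusted p = 0.0193) and in Otx2 (+/-) (0.91 ± 0.13, adjusted p = 0.00819). Of the syntrophins in 4V ChP after Cre-Tat, *Sntb2* rose (0.52 ± 0.14, adjusted p = 0.0251) and *Sntb1* fell (-0.50 ± 0.13, adjusted p = 0.0193). The 4V calls of *Dtna*, *Sntb1* and *Sntb2* were each lost without at least 2 of the 4 pools, each left out in turn (adjusted p = 0.0582 to 0.419). Those of *Dtna* and *Sntb2* were also lost with transcripts summed (0.0501 and 0.0614) and all groups of the run (0.0625 and 0.131), and that of *Sntb1* with total counts (0.139). The list thus counted 2 of 11 higher in LV, 4 higher and 1 lower in 4V ChP and 2 higher in Otx2 (+/-), where 2.21%, 5.7% and 4.99%, and 1.79% of all genes were called in these directions. The list's medians were 0.11, 0.03 and 0.41 on the log2 scale. In Otx2 (+/-), 8 of the 11 had an unadjusted p under 0.05 (edgeR), against 2697 of all 14561 genes. DESeq2 called 4 of the 11 and 668 genes in all. *Hepacam* was not called there, at 8.44 and 11.3 CPM against 5.55 and 6.13 CPM in WT pools. None of the 11 passed in Otx2 (+/AA) against WT with edgeR, where 0.345% of all genes did. An unadjusted p under 0.05 was found for 2 of them and for 1289 of 14482 genes, and DESeq2 called 1 of them and 122 genes in all.

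**Figure D4:**
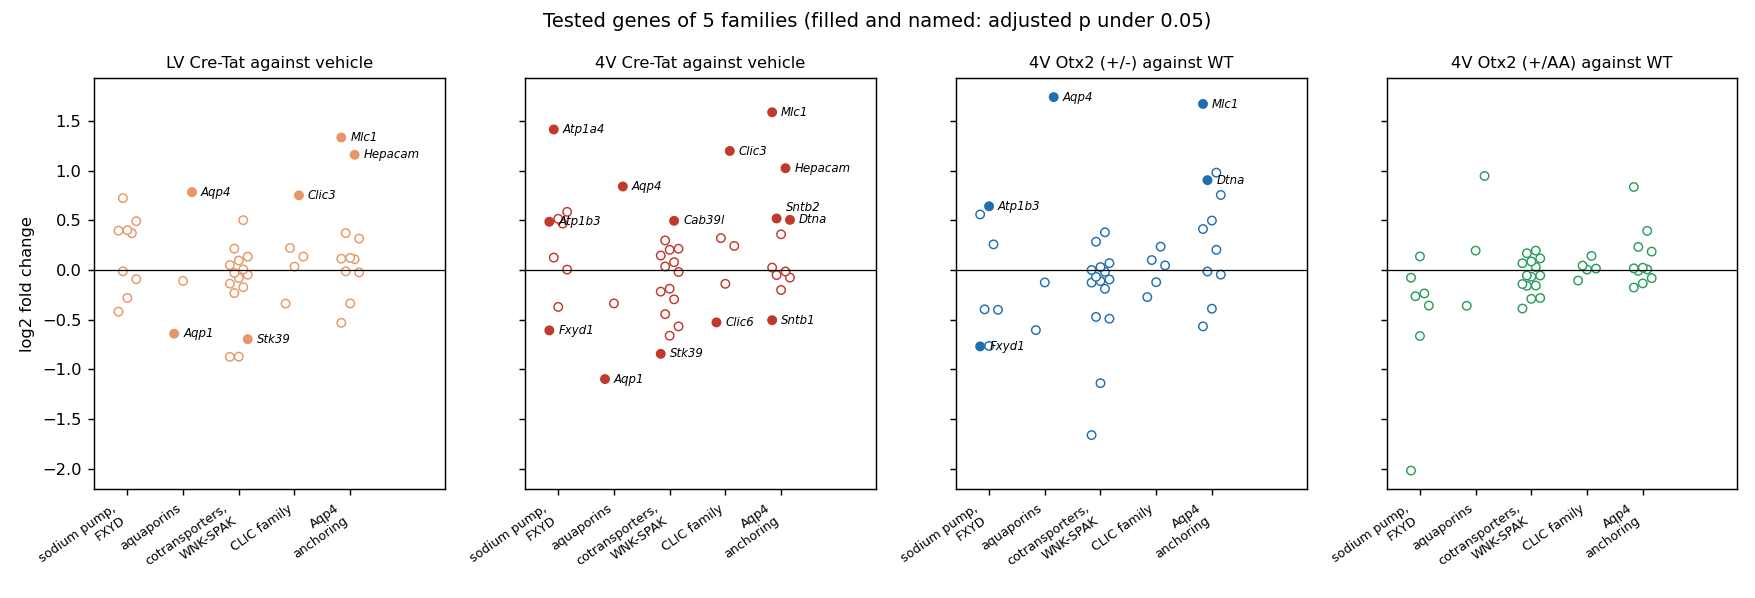
Log2 fold change (vertical axis) of each tested gene of the 5 gene lists in 4 comparisons, 1 panel each. Filled points with names had an adjusted p under 0.05, and the horizontal spread within a list carries no value. *Mlc1* and *Aqp4* are named above 0 in the first 3 panels, and no gene is named in the panel of Otx2 (+/AA).

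The genes most like each member were ranked by Pearson correlation of log2(CPM + 1), centred within each sequencing run, among 13428 genes with a mean of at least 1 CPM, over 14 pools that share libraries, depth and treatment. *Aqp1* was closest to *Cdipt* (r = 0.977), *Ttr* (0.976) and *Fkbp9* (0.973), *Ttr* being the thyroid hormone carrier that is the most abundant product of ChP. *Aqp4* was closest to *Gprc5b* (r = 0.950), *Lmo7* (0.916) and *Amz2* (0.912). For *Atp1b1* these were *Whrn*, *Pdk4* and *Adcy6* (r = 0.947 to 0.953), for *Atp1b2* *Cops6*, 2310007B03Rik and *Slc7a8* (0.910 to 0.946), and for *Fxyd1* *Ccdc107*, *Pltp* and *Clu* (0.961 to 0.970). *Slc12a2* was closest to *Ift80*, *Opa1* and *Cnnm3* (0.888 to 0.9001), *Stk39* to *Tbcd*, *Aco1* and *Nhs* (0.951 to 0.960) and *Clic6* to *Mgat4a*, *Yap1* and *Specc1l* (0.934 to 0.948). Among the members themselves, *Aqp1* was most like *Stk39* (r = 0.855) and least like *Atp1b1* (-0.857), with r = -0.729 against *Aqp4*.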

How the data were processed

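The study prepared RNA libraries from pooled ChP, sequenced reads of 50 bases and deposited a table of read counts per Ensembl transcript for each library; the authors' counts were not normalized. The submitters' processing notes name Bowtie 0.12.9, SAMtools, HTSeq 0.5.3, DESeq 1.8.3 and bcl2fastq 1.8.4. Whether counting used strand, and how a read on several transcripts was treated, is not given in the sources used here. The labels name ribosomal depletion and the study's methods poly(A) selection, which was not settled.

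The 8 conditional pools were run on 2 lanes, and both counts of a pool were summed. Files and pools were matched on library numbers, which for 14 of 16 files point to another sample than the attached one. Of 95533 transcripts, 82807, with 89.462% of the counts, had a symbol in GENCODE vM21 (GRCm38), and the other 12726 were left out. For each of 33964 genes, the transcript with the largest summed count stood for the gene. Tests used edgeR 4.0.16 in R 4.3.3 (filterByExpr, TMM, quasi-likelihood F-test, Benjamini-Hochberg adjustment over all genes, threshold 0.05), fitted on the groups compared, with tables made in Python 3.11.15 (pandas 2.3.3, NumPy 2.4.6, SciPy 1.17.1). "Rose" and "fell" are used for adjusted p under 0.05. The fits were tested on simulated data. All 8 members are named in every comparison, at most 5 other called genes a list (smallest adjusted p first), Otx2 as the target, and the 3 most similar genes of each member. A few kinase, subunit and marker genes were named after their values were seen. Some genes of the pump list are not reported here. The members and lists were chosen with earlier results of these data known. Alternatives were DESeq2 1.42.0 and edgeR with its size factors, scaling to total counts, unfiltered genes or those with a mean count above 10, pool letter as a block, transcripts summed, all groups of a run in the fit, files as attached, and each pool left out.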

Additional observations from a re-analysis of the deposited data

Results flagged for a closer look

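*Clic3*, a CLIC gene listed beside *Clic6*, was the gene of the 5 lists whose 4V response differed between the models by a test of the difference itself. It was 1.20 ± 0.16 higher on the log2 scale in Cre-Tat than in vehicle pools (43.3 and 35.8 against 19.0 and 15.6 CPM) and -0.12 ± 0.15 in Otx2 (+/-) against WT pools (15.2 and 17.6 against 17.0 and 18.7 CPM), a difference of 1.31 ± 0.22 (edgeR, adjusted p = 0.0118). Without vehicle pool B the difference was 1.18 (adjusted p = 0.0773). The models also differ in strain, in the time of the loss and in the sequencing run, which cannot be told apart.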

How the results depend on the processing

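Over the members' values under all alternatives, 783 kept direction and side of the threshold, 43 gained a call, 34 lost one and 60 changed sign. With library numbers as the join, 4V *Aqp1* and *Stk39* after Cre-Tat and *Aqp4* and *Fxyd1* in Otx2 (+/-) kept their calls in every fit run. Depth did not leave any member near the floor of 3 counts, and 2 pools a group limit the precision. Where a pool was left out, the lone pool of its arm was assumed to vary like the other group. The cause of the changes was not tested.

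In LV ChP after Cre-Tat (486 genes and 3 members called), 872 genes were called with no filter and 6705 with the files as attached, the members numbering 1 with total counts and 8 as attached; leaving out 1 pool gave 325 to 736 genes and 0 to 3 members. In 4V ChP after Cre-Tat (1554 and 5), there were 8741 genes and 8 members as attached, 2 members with transcripts summed and 3 with all groups of the run, and 890 to 1666 genes and 3 to 6 members with 1 pool left out. Otx2 (+/-) against WT (514 and 2) gave 4 members with DESeq2, and 402 to 880 genes and 2 to 3 members with 1 pool left out. Otx2 (+/AA) against WT (50 and 0) gave 122 genes and 1 member with DESeq2, 390 genes and 1 member with no filter, 22 genes with transcripts summed, 18 with all groups of the run, and 35 to 374 genes and 0 to 1 members with 1 pool left out. Otx2 (+/-) against Otx2 (+/AA) (393 and 0) gave 1 member with DESeq2 and with total counts, 248 genes with transcripts summed, and 402 to 787 genes and 0 to 2 members with 1 pool left out. LV against 4V ChP in vehicle mice (1090 and 1) gave 1838 genes and 2 members with no filter, 715 genes with all groups of the run, 4715 genes and 7 members as attached, 0 members with DESeq2, transcripts summed and all groups of the run, and 408 to 1969 genes and 0 to 1 members with 1 pool left out. The Cre-Tat response in LV against 4V (1 and 0) gave 5 genes with DESeq2, 31 with no filter, 0 with a mean count above 10 or transcripts summed, 5246 genes and 6 members as attached, and 0 to 3 genes with 1 pool left out. The 4V response of Cre-Tat against Otx2 (+/-) (247 and 0) gave 374 genes with DESeq2, 626 genes and 1 member with no filter, 4681 genes and 7 members as attached, and 80 to 246 genes with 1 pool left out.

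With only 2 pairs a comparison, pool letters do not establish a pairing (same-letter correlation of deviations -0.128 to 0.359). With pool letter as a replicate block, 3117 genes were called in 4V ChP after Cre-Tat, 2522 genes and 5 members in Otx2 (+/-), 547 genes and 1 member in Otx2 (+/AA), 1 member in Otx2 (+/-) against Otx2 (+/AA), 2277 genes and 2 members between ventricles and 2 genes in the ventricle interaction. Under this block *Aqp1* lost its LV call, while *Atp1b1* in 4V ChP after Cre-Tat (adjusted p = 3.3e-06), *Aqp1* (4.29e-05), *Atp1b2* and *Stk39* (0.00188) in Otx2 (+/-), *Aqp4* in Otx2 (+/AA) (2.97e-05), *Stk39* between both mutants (0.0322) and *Fxyd1* between ventricles gained one. A crossed replicate block, chosen after seeing the data, called 995 genes in LV, 1018 genes and 3 members in 4V after Cre-Tat, 605 genes and 1 member in Otx2 (+/-) against Otx2 (+/AA), and 619 genes and 0 members between ventricles; it was not run for the interactions. Under it the 4V Cre-Tat calls of *Fxyd1*, *Clic6*, *Atp1b3*, *Cab39l*, *Dtna*, *Sntb1* and *Sntb2* were lost (adjusted p = 0.078 to 0.293), as were *Atp1b3* in Otx2 (+/-) (0.067) and *Atp1b2* (0.0958) and *Aqp11* (0.107) between ventricles, and *Aqp4* was called between both mutants (0.000528).

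With the files as attached, these log2 values changed sign in LV ChP after Cre-Tat: *Aqp1* 0.11, *Aqp4* -0.39, *Atp1b1* -0.26, *Atp1b2* 0.40, *Fxyd1* 0.35, *Stk39* 0.043, *Clic6* 0.23, *Clic3* -0.63, *Mlc1* -1.12 and *Otx2* -0.013. In 4V ChP they were *Aqp1* 0.59, *Aqp4* -0.33, *Atp1b1* -0.57, *Fxyd1* 1.105, *Slc12a2* -0.45, *Stk39* 0.064, *Clic6* 0.10, *Atp1a4* -0.70, *Cab39l* -0.14, *Clic3* -0.45, *Mlc1* -1.056, *Dtna* -0.45, *Sntb2* -0.48 and *Otx2* -0.29. Between ventricles they were *Atp1b2* -0.54, *Stk39* 0.11, *Clic6* -0.20 and *Clic5* -0.31. In the ventricle interaction they were *Aqp1* -0.48, *Atp1b1* 0.30, *Atp1b2* 0.28, *Fxyd1* -0.75, *Slc12a2* 0.38 and *Stk39* -0.022, and in the interaction of models *Aqp1* 1.19, *Atp1b1* -0.84, *Slc12a2* -0.49, *Stk39* 0.52, *Clic6* 0.039 and *Clic3* -0.34. Total counts turned LV *Fxyd1* (0.066) and *Slc12a2* (0.13), Otx2 (+/AA) *Atp1b1* (0.047), and *Aqp1* (-0.11) and *Clic6* (-0.18) between ventricles. *Clic6* in Otx2 (+/-) against Otx2 (+/AA) was 0.0015 with DESeq2 and with its size factors, and *Otx2* in Otx2 (+/AA) was -0.011 with transcripts summed. Total counts moved the median of all genes by 0.17 in LV and 0.15 in 4V ChP after Cre-Tat, 0.11 in Otx2 (+/AA) and -0.19 between ventricles, and split the calls 396 higher to 48 lower in LV, 1321 to 426 in 4V, 320 to 211 in Otx2 (+/-), 183 to 294 against Otx2 (+/AA) and 252 to 1226 between ventricles.

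Uncalled values whose sign turned with 1 pool left out spanned, after Cre-Tat, -0.52 to 0.26 (*Fxyd1*, LV), -0.33 to 0.21 (*Slc12a2*, LV) and -0.33 to 0.47 (*Atp1b2*, 4V). In Otx2 (+/-) against WT they spanned -0.090 to 0.14 (*Slc12a2*) and -0.054 to 0.14 (*Clic6*), and in Otx2 (+/AA) -0.20 to 0.055 (*Atp1b1*), -0.60 to 0.070 (*Atp1b2*), -0.014 to 0.076 (*Stk39*), -0.066 to 0.16 (*Clic6*) and -0.064 to 0.19 (*Otx2*). Between both mutants they spanned -0.47 to 0.20 (*Atp1b2*) and -0.11 to 0.11 (*Clic6*), and between ventricles -0.10 to 0.28 (*Aqp1*), -0.53 to 0.12 (*Aqp4*) and -0.10 to 0.14 (*Clic6*). In the interactions they spanned -0.43 to 0.23 (*Aqp4*), -0.32 to 0.069 (*Atp1b1*), -0.74 to 0.062 (*Atp1b2*) and -0.060 to 0.40 (*Fxyd1*, models).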
